A study of Mus musculus with 6 samples.

Results

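The transcription factors described here set or hold the identity of hepatocytes, and were followed in the livers of mice with diabetic steatohepatitis. All 8 were found among the 22087 genes that the arrays measured with a probe set annotated to a single symbol. They are Onecut1 and its paralog Onecut2, the forkhead factors Foxa1, Foxa2 and Foxa3, the C/EBP factors Cebpa and Cebpb, and the homeobox factor Prox1. Onecut1 was picked because it had been reported as lower with telmisartan in these same livers, so its difference is given as a description without a test, while the other 7 were picked by family. Each of the 8 genes had 1 probe set of its own, and none shared a further probe set with another gene.

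The telmisartan group consisted of 3 STAM mice, which are C57BL/6J males given 200 μg of streptozotocin 2 days after birth, a toxin of the insulin-producing beta cells, and 60 kcal% fat chow from 4 weeks of age on. They took telmisartan, a blocker of the angiotensin II receptor, by mouth at 5 mg/kg per day between 6 and 12 weeks of age. The vehicle group consisted of 3 STAM mice with the same toxin and chow that took the carrier, 0.5% carboxymethyl cellulose, over the same weeks. Both groups are thus diabetic and fat-fed, each was drawn from 7 mice, and healthy mice are not analysed here. Liver RNA of each mouse was hybridized to 1 Affymetrix array of the type Mouse Gene 2.0 ST, and the values below are log2 of the deposited intensities, on which a difference of 1 is a doubling.

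In hepatocytes, identity is held by a small group of factors that bind the regulatory regions of liver genes and of one another's genes. FOXA proteins open closed chromatin ahead of other factors, Onecut1 (also named HNF6) binds through a cut domain and a homeodomain and acts in the liver and the bile ducts, C/EBPalpha drives genes of the differentiated liver such as those of the urea cycle and of gluconeogenesis, and C/EBPbeta drives acute phase genes. Prox1 is needed for the growth of the liver bud, restrains bile acid synthesis in hepatocytes and also defines lymphatic endothelium. The promoters below show the start regions of the genes with the lowest and the highest difference, Onecut1 and Foxa3. Beside them stand a stretch of Foxa2 with the letters searched for HNF6 and a stretch of Foxa1 with those searched for FOXA.

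The sequences come from RefSeq on GRCm38.p6 and are printed 5′ to 3′ in the direction of transcription with matches in capitals. Start regions of 7 of the 8 genes were searched, with 10 start sites in all, and Onecut2 was not among them. The search covered 4 motifs in the 250 bases before each start: ATTGAT for HNF6, TGTTTNC for FOXA and TTGCNNAA for C/EBP on both strands, and TATAAA on the strand of the gene. The motifs do not overlap in the stretches shown.
Onecut1, chr9:74861671-74861920, plus strand: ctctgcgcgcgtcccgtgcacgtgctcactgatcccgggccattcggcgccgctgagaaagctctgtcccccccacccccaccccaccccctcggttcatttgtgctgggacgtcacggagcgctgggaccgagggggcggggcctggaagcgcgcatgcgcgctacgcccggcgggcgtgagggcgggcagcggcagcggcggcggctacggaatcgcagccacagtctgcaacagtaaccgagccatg
Foxa3, chr7:19023540-19023789, minus strand: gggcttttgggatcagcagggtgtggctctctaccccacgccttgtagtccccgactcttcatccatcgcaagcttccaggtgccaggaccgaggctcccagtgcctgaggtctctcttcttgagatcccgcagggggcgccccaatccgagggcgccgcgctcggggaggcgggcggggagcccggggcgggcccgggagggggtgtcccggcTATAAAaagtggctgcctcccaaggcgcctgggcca
Foxa2, chr2:148046970-148047219, minus strand: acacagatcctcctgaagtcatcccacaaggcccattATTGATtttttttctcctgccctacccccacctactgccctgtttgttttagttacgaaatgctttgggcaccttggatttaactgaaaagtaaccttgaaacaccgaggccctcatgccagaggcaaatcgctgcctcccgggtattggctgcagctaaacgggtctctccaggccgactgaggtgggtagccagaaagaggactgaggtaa
Foxa1, 30 bases at chr12:57546235-57546264, minus strand: ttatactgctttGTAAACAaagtgagggcc
None of the 4 motifs occurred in the Onecut1 stretch. The Foxa2 stretch, upstream of the outermost of its 3 listed starts, held the HNF6 letters, which 6.72% of all 32851 promoters hold. Foxa1 held the FOXA letters on the reverse strand, and 1 of the 2 starts of Prox1 held them too, against 17.8% of all promoters. The TATA letters stood before Foxa3 and Cebpa (7.59% of promoters), and the C/EBP letters (9.56% of promoters) stood before none of the 7 genes. A match describes the letters only.

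Arrays were alike as a whole, with pairwise Pearson correlations of 0.984 to 0.991 across probe sets. The lowest mean correlation with the other arrays, 0.985, was that of vehicle 1. The liver label was checked on 11 measured hepatocyte markers, whose mean log2 intensity ran from 4.42 for Ass1 to 12.89 for Alb, beside an array median of 2.85 to 2.93. Markers of neutrophils were at 1.54 to 2.96. The summed intensity of the hepatocyte markers was 31068 to 33397 with telmisartan and 32112 to 33158 with vehicle, so the ranges overlapped. Of these 11 genes 1 was called lower, Cyp3a11, a drug-metabolizing cytochrome P450 (-0.43, standard error 0.17), and its call was lost with the methods' t-test and without telmisartan 1, telmisartan 2, vehicle 2 or vehicle 3. Without telmisartan 3 the count was 2, with Ass1 beside it. In whole liver, fewer cells of a type and less RNA per cell cannot be told apart.

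Within the Onecut pair, Onecut1 was lower on each telmisartan array than on any vehicle array, and Onecut2 was not set apart. Onecut1 (probe set 17519357, gene at chr9:74861921-74889648) was at 4.41, 4.48 and 3.60 in log2 intensity in telmisartan mice 1, 2 and 3, against 5.57, 5.44 and 5.37 in vehicle mice 1, 2 and 3. As linear intensities these were 21.2, 22.3 and 12.1 with telmisartan and 47.6, 43.4 and 41.4 with vehicle. The vehicle mice lay close together while telmisartan 3 lay well below the other treated mice. The spread was 0.49 with telmisartan and 0.10 with vehicle (SD, n = 3 each). The fitted difference was -1.30 (standard error 0.22), so that vehicle livers had 2.46 times the signal of telmisartan livers. A difference as low or lower was seen in 8 of the 22087 genes, Onecut1 included. That rank is a description and no test, since Onecut1 was picked for its difference. Without telmisartan 3 the difference was -1.02.

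Onecut2, on chromosome 18, encodes a factor with the same kind of cut domain and homeodomain. It was at 6.11, 6.39 and 5.90 with telmisartan, against 6.29, 6.35 and 6.30 with vehicle. The treated mice spanned the vehicle values, with telmisartan 2 highest and telmisartan 3 lowest of all 6. The difference was -0.18 (95% interval -0.49 to 0.13, limma unadjusted p of 0.221, adjusted p = 0.801). Without telmisartan 2 it was -0.31 and passed the thresholds (unadjusted p of 0.0342). On telmisartan 3 both paralogs had their lowest value. The log2 value of Onecut1 less that of Onecut2 was -1.71, -1.91 and -2.30 in the telmisartan mice and -0.72, -0.91 and -0.93 in the vehicle mice, which is given as a description since Onecut1 was chosen for its difference.

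**Figure D1:**
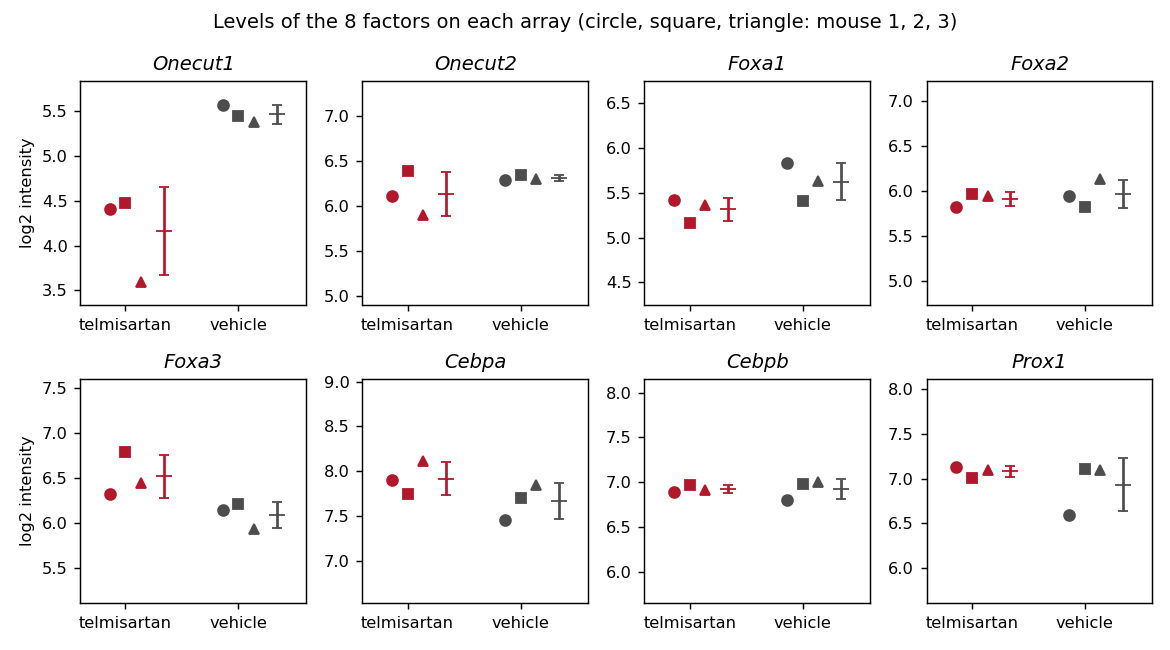
Log2 intensity of each of the 8 factors (y axis, every panel spans the same range) on the 3 telmisartan arrays (red) and the 3 vehicle arrays (grey), with circles, squares and triangles for mouse 1, 2 and 3 and the mean ± SD at the right of each group. The groups are apart for Onecut1, lower with telmisartan, and for Foxa3, higher with telmisartan, and overlap for the other 6 genes.

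The 3 FOXA genes had differences of both signs. Foxa3, a forkhead factor that comes on after the other FOXA genes in development and is kept in the adult liver, was higher with telmisartan. Foxa1, a pioneer factor of the early liver, had a lower mean that missed the threshold, and Foxa2, which acts with Foxa1 in liver specification, had groups that interleaved.

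Foxa3 (17487149, chr7:19013283-19023539) was at 6.32, 6.79 and 6.45 with telmisartan, against 6.14, 6.21 and 5.93 with vehicle. Each treated mouse lay above each vehicle mouse, and telmisartan 2 was the highest. The means were 6.52 ± 0.24 with telmisartan and 6.09 ± 0.15 with vehicle (SD, n = 3 each), a log2 difference of 0.43 (standard error 0.15), a fold of 1.34. The limma unadjusted p was 0.0184 and the adjusted p = 0.696 over all probe sets. This call was lost without telmisartan 2 (0.29, unadjusted p of 0.0594), without vehicle 3 (0.34, unadjusted p of 0.0685) and with the methods' t-test (unadjusted p of 0.0584).

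Foxa1 (17281337) was at 5.42, 5.17 and 5.36 with telmisartan, against 5.83, 5.41 and 5.63 with vehicle. The groups met at one point, since telmisartan 1 lay just above vehicle 2. The difference was -0.31 (95% interval -0.62 to 0.00, limma unadjusted p of 0.0512, adjusted p = 0.709), just outside the threshold on p and past that on fold. Without vehicle 2 it was -0.41 (unadjusted p of 0.0197), and without vehicle 1 it was -0.21.

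Foxa2 (17392561) was at 5.82, 5.96 and 5.95 with telmisartan, against 5.95, 5.83 and 6.13 with vehicle. Vehicle 3 was the highest and telmisartan 1 the lowest, and the difference of -0.06 had a 95% interval of -0.33 to 0.21 (limma unadjusted p of 0.627). It turned to 0.02 without vehicle 3.

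The opposite signs of Foxa3 and Foxa1 were seen first and then compared within arrays. The log2 value of Foxa3 less that of Foxa1 was 0.90, 1.62 and 1.09 in telmisartan mice, against 0.31, 0.80 and 0.30 in vehicle mice, so that every treated mouse lay above every vehicle mouse. The changes of both genes differed by 0.73, and by 0.53 to 0.90 with 1 array left out, given without a test because the pair was picked for its opposite signs. Telmisartan 2 had both the highest Foxa3 and the lowest Foxa1 value of the 6 arrays.

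**Figure D2:**
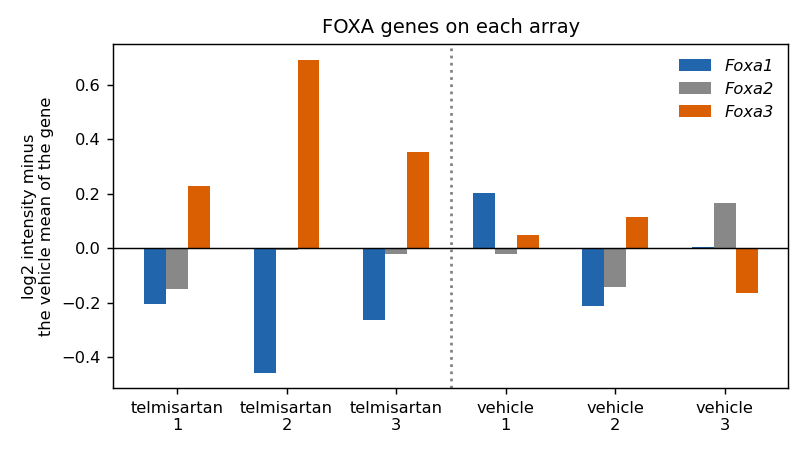
Log2 intensity of Foxa1 (blue), Foxa2 (grey) and Foxa3 (orange) on each array, as the distance from that gene's vehicle mean (y axis). Foxa3 stands above and Foxa1 below 0 in all 3 telmisartan mice, while the vehicle mice scatter around 0.

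Neither C/EBP factor passed the thresholds. Cebpa (17476728) was at 7.90, 7.74 and 8.11 with telmisartan, against 7.45, 7.71 and 7.85 with vehicle. Telmisartan 3 was the highest and vehicle 1 the lowest, and telmisartan 2 lay below vehicle 3. The difference of 0.25 (95% interval -0.08 to 0.58, limma unadjusted p of 0.119, adjusted p = 0.755) fell to 0.14 when vehicle 1 was left out.

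Cebpb (17379938) was at 6.89, 6.97 and 6.92 with telmisartan, against 6.80, 6.98 and 7.01 with vehicle. The treated mice lay inside the range of the vehicle mice. The difference of -0.00 had a 95% interval of -0.24 to 0.24 (limma unadjusted p of 0.969), which is narrower than the interval of any other of the factors.

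Prox1 (17230960) was at 7.13, 7.01 and 7.10 with telmisartan, against 6.59, 7.11 and 7.10 with vehicle. A single mouse, vehicle 1, lay below the rest, and the other 5 lay within a narrow band. The difference was 0.15 (95% interval -0.20 to 0.49, limma unadjusted p of 0.361) and -0.02 without vehicle 1.

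Counted over the group, 1 of the 8 factors was higher (Foxa3) and 1 was lower (Onecut1, by choice) at the thresholds of the methods, an unadjusted limma p under 0.05 with a fold of at least 1.2. Over all genes these thresholds call 3.08% higher and 3.5% lower. The methods' t-test called 0 of the 8 higher, where it called 1.47% of all genes higher and 1.75% lower. The paper reported far fewer genes at the same cutoffs, and the reason for this was not tested. The telmisartan mice lay wholly above the vehicle mice for 1 of the 8, Foxa3, and this held for 6.08% of all genes, with 6.35% wholly below. Nothing is read from the lower shares, since Onecut1 stands on that side by choice. The median difference of the factors was -0.03, beside -0.00059 over all genes. With limma, 0 probe sets passed an adjusted p of 0.05 (lowest 0.0725) and 1617 an unadjusted one. With the methods' t-test these counts were 0 (lowest 0.487) and 1312.

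**Figure D3:**
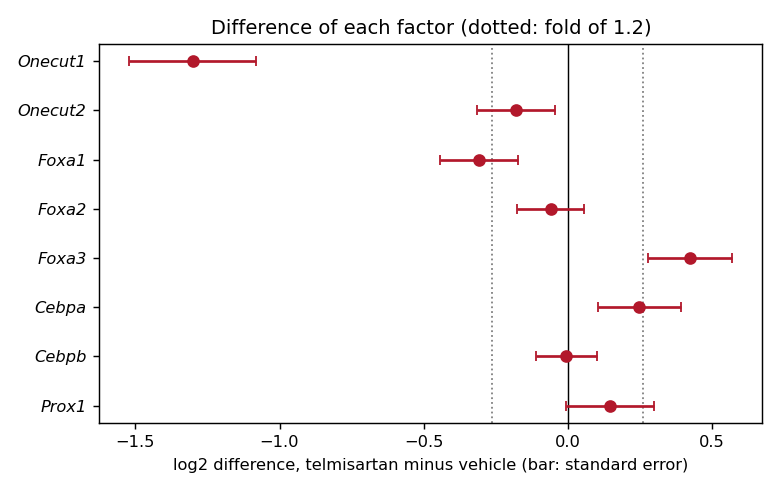
Log2 difference of each factor, telmisartan minus vehicle (x axis), with the limma standard error as bars and dotted lines at a fold of 1.2. Onecut1 lies at -1.30 and Foxa3 at 0.43, with the other 6 between -0.31 and 0.25.

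The other transcription factors of the hepatocyte network were below the thresholds with all 6 arrays. Of 24 such factors measured, 0 were higher and 0 were lower with limma and with the methods' t-test, with differences from -0.23 to 0.63 around a median of -0.04 and a lowest unadjusted limma p of 0.086. Hnf4a, the nuclear receptor at the centre of the network, was at 9.01, 9.01 and 8.90 with telmisartan, against 8.95, 9.06 and 9.06 with vehicle. Nr0b2, which encodes the corepressor SHP of bile acid synthesis, had the highest mean difference, 0.63 (standard error 0.32), and was at 6.88, 6.25 and 6.52 with telmisartan, against 6.74, 5.56 and 5.46 with vehicle. Vehicle 1 lay with the treated mice for this gene, so the groups overlapped. Zhx2, a repressor of foetal liver genes, had the lowest mean difference, -0.23 (standard error 0.12, limma unadjusted p of 0.0889). Leaving out 1 array brought single calls. Nr0b2 was higher without vehicle 1 (1.04, unadjusted limma p of 0.000819), the circadian factor Klf15 without telmisartan 1 (0.47) and Mlxipl, the glucose-sensing factor ChREBP, without vehicle 2 (0.53), while Zhx2 was lower without telmisartan 1 (-0.31) and Hhex, a homeobox factor of the liver bud, without vehicle 3 (-0.41). Nr0b2 was also higher with array weights in limma (0.85).

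Among relatives of the factors, calls were few. Of 5 measured cut homeobox genes and Prox2, 1 was lower and 0 were higher. This was Cux1, a cut homeobox repressor, at 4.76, 4.66 and 4.36 with telmisartan, against 4.91, 4.94 and 4.87 with vehicle. Its difference of -0.31 (standard error 0.13, limma unadjusted p of 0.0373) was called without telmisartan 1 but not without any other array (unadjusted p up to 0.126), and it was lost with the methods' t-test, with a pseudocount of 8 and with the mean over its probe sets. Prox2, a dim relative of Prox1, gave -0.25 (limma unadjusted p of 0.080) and was called lower without vehicle 1 (-0.33), and Onecut3, the third Onecut gene, gave 0.17 (standard error 0.11).

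Of 16 other forkhead factors, 2 were higher and 0 lower, with a median of -0.03. Both were FOXO factors, which insulin signalling keeps out of the nucleus. Foxo1 was at 6.37, 6.37 and 6.63 with telmisartan, against 5.53, 6.18 and 6.25 with vehicle, a difference of 0.47 (standard error 0.19). Foxo3 was at 5.24, 5.27 and 5.56 with telmisartan, against 4.90, 5.01 and 5.19 with vehicle, a difference of 0.32 (standard error 0.13). Each treated mouse lay above each vehicle mouse for both genes, and for both, telmisartan 3 was the highest and vehicle 1 the lowest. The limma unadjusted p-values were 0.0422 and 0.0382 in that order. The call of Foxo1 was lost without any 1 of the telmisartan mice or vehicle 1 (unadjusted p up to 0.135), and that of Foxo3 without telmisartan 3, vehicle 1 or vehicle 2 (up to 0.134). The methods' t-test called neither, and Foxo1 was also lost with array weights, with a pseudocount of 8 and with the mean over its probe sets. Foxk2, a forkhead repressor, was called lower without telmisartan 2 (-0.34).

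Of 8 other C/EBP and PAR bZIP factors, 0 were called with limma or the methods' t-test, with a lowest unadjusted limma p of 0.103 and a median of -0.07. Ddit3, the stress-induced C/EBP relative CHOP, gave -0.27 (standard error 0.15), with a call as lower without vehicle 2 (-0.38), and Cebpe, a C/EBP factor of granulocytes, gave -0.18 (standard error 0.11).

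**Figure D4:**
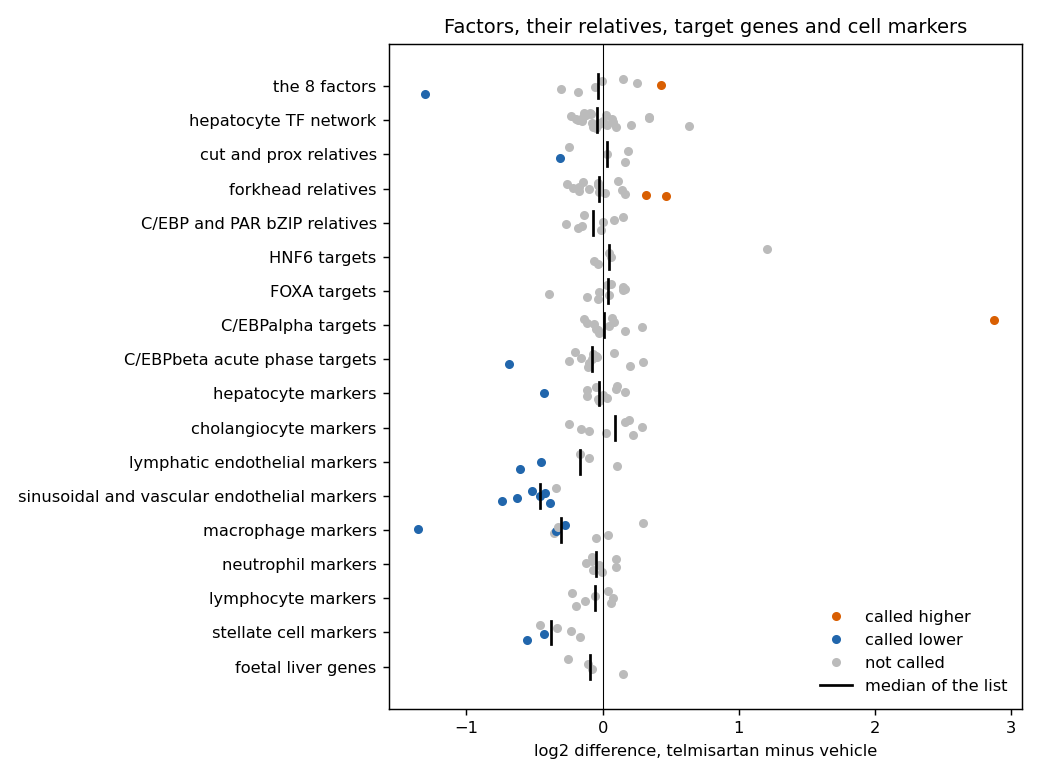
Log2 difference, telmisartan minus vehicle (x axis), of each measured gene in the group of 8 factors, their relatives, target genes and cell markers (rows), with genes called higher in orange, called lower in blue and others in grey and a black bar at each median. The network and target rows centre near 0. The endothelial and stellate rows lie wholly below 0, with 6 of 7 endothelial and 2 of 6 stellate genes called lower. The endothelial count was 1 with the methods' t-test or without telmisartan 2, telmisartan 3 or vehicle 3.

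Genes known to be driven by these factors were next read out. Lists share genes with one another and with the hepatocyte markers, so their counts are not independent. Of 5 measured genes linked to HNF6, 0 passed with limma or the methods' t-test (lowest unadjusted limma p of 0.137), with a median of 0.04. This count leaves out Pfkfb1, which the annotation used here did not match to a probe set of its own. The paper's supplement lists a probe set for Pfkfb1, with each telmisartan array above each vehicle array, and that difference was not tested. The gluconeogenic G6pc gave -0.06 (standard error 0.20), the glucose transporter Slc2a2 0.06 (standard error 0.12) and the thyroxine carrier Ttr -0.03 (standard error 0.10). Cyp7a1, the rate-limiting enzyme of bile acid synthesis, was at 7.30, 7.99 and 8.93 with telmisartan, against 5.00, 7.64 and 7.98 with vehicle. The fold of the means was 2.30, with a standard error of 0.73 on the log2 scale (limma unadjusted p of 0.137), and vehicle 1 lay far below every other mouse. Without vehicle 1 the fold was 1.2 (unadjusted limma p of 0.542).

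Of 10 measured genes linked to FOXA factors, 0 passed with limma or the methods' t-test, and their median was 0.04. Igfbp1, a secreted binder of insulin-like growth factors that insulin represses, came closest. It was at 8.97, 9.53 and 9.49 with telmisartan, against 9.56, 9.67 and 9.95 with vehicle, with every treated mouse below every vehicle mouse. Its difference was -0.40 (standard error 0.18, limma unadjusted p of 0.0518). It was called lower, which makes the count 1, with quantile normalization, median centring, an intensity trend or array weights, and without telmisartan 2 (-0.50) or vehicle 1 (-0.48). Cps1, the entry enzyme of the urea cycle, gave 0.17 (standard error 0.11, limma unadjusted p of 0.165).

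Of 12 genes linked to C/EBPalpha, 1 was higher and 0 lower with limma, and the methods' t-test gave the same count. Their median was 0.01. The gene was Hamp, which encodes the iron hormone hepcidin, at 10.30, 10.10 and 11.92 with telmisartan, against 8.72, 8.25 and 6.73 with vehicle. The difference was 2.87 (standard error 0.58, limma unadjusted p of 0.00101, adjusted p = 0.696), and its call held without any 1 array. Hamp had the highest difference of all 22087 genes. The list was drawn up with earlier results of these data known, so this count is no test of C/EBPalpha. Arg1, the last enzyme of the urea cycle, gave 0.29 (standard error 0.14, limma unadjusted p of 0.0625) and was called higher without vehicle 3 (0.40), with an intensity trend and with a pseudocount of 8, and Otc, another urea cycle enzyme, gave -0.03 (standard error 0.15).

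Of 13 measured acute phase genes linked to C/EBPbeta, 1 was lower and 0 higher with limma (0 with the methods' t-test), and the median was -0.08. Saa3, a serum amyloid made also by macrophages, was at 4.06, 4.94 and 4.31 with telmisartan, against 5.19, 5.14 and 5.05 with vehicle. Its difference was -0.69 (standard error 0.21, limma unadjusted p of 0.00945), and it was called without any 1 array. Itih4, an acute phase inhibitor, gave -0.20 (standard error 0.15), and haptoglobin, Hp, gave -0.11 (standard error 0.15).

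The genes whose pattern over the 6 arrays was most like that of Onecut1 were sought among 5604 genes with a mean log2 intensity of at least 5. With Pearson's r as the measure, these were Acp2, a lysosomal acid phosphatase (0.996), Trappc10, of a vesicle tethering complex (0.990), Ubap1, of the ESCRT-I sorting complex (0.987), Dis3, a ribonuclease of the RNA exosome (0.981), and Adam9, a membrane protease (0.977). Most opposite were Aldh1l1, an enzyme of folate metabolism (-0.991), Ubxn1, a cofactor of the p97 ATPase (-0.985), Dbt, of branched-chain amino acid breakdown (-0.984), Oaf (-0.980) and Gpt, alanine aminotransferase (-0.976). Acp2 was at 6.46, 6.50 and 6.34 with telmisartan, against 6.68, 6.64 and 6.65 with vehicle, and Gpt was at 7.55, 7.61 and 7.97 with telmisartan, against 7.14, 7.33 and 7.32 with vehicle. Like Onecut1, Acp2 was lowest on telmisartan 3, and there Gpt was highest. All 6 points carry the group difference, so these values describe the arrays and no p is attached. The size of the change differed widely, at -0.23 for Acp2 and 0.45 for Gpt.

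Markers of other liver cells are given beside these results, since bile duct cells also carry Onecut1, lymphatic endothelium carries Prox1 and myeloid cells carry C/EBP factors. Of 8 measured bile duct markers 0 passed with limma or the methods' t-test, with means of 1.64 to 4.77 in log2 intensity. The lowest p-values were those of Muc1 (-0.24) and Tspan8 (0.19). The summed intensity of the list was 71.0 to 84.4 with telmisartan and 71.3 to 81.3 with vehicle. Of 5 measured lymphatic markers 2 were lower. These were Lyve1, a hyaluronan receptor that sinusoidal endothelium carries too, at -0.60 (standard error 0.16), and Flt4, a VEGF receptor, at -0.45 (standard error 0.14). The summed intensity of this list was 170 to 223 with telmisartan and 232 to 280 with vehicle, while the difference of Prox1 was 0.15, as given above. Pdpn and Mmrn1, which define lymphatic vessels more narrowly, were dim and gave 0.11 and -0.10.

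Of 7 markers of sinusoidal and vascular endothelium 6 were lower. These were Oit3 (-0.63), Clec4g (-0.74) and Stab2 (-0.38), which sinusoidal cells carry, and the VEGF receptor Kdr (-0.52) and the junction proteins Pecam1 (-0.46) and Cdh5 (-0.42). This count was 1 with the methods' t-test, and 1 when telmisartan 2, telmisartan 3 or vehicle 3 was left out. Their summed intensity was 400 to 589 with telmisartan and 579 to 743 with vehicle. Of 8 macrophage markers 3 were lower, the growth factor receptor Csf1r (-0.35), the scavenger receptor Marco (-1.35) and the complement receptor Vsig4 (-0.28), with summed intensities of 795 to 860 with telmisartan and 768 to 1228 with vehicle. The macrophage count was 1 with the methods' t-test or without telmisartan 1, telmisartan 3, vehicle 2 or vehicle 3, and 5 without vehicle 1. Of the macrophage genes that did not pass, Cd68 gave -0.36 and Cd5l -0.33, while Clec4f and Adgre1 gave 0.04 and -0.05. Lyz2, a lysozyme of myeloid cells, gave 0.30 with each treated mouse above each vehicle mouse (limma unadjusted p of 0.0626). Lyz2 was called higher without vehicle 3, with quantile normalization and with a pseudocount of 8. Of 6 stellate cell markers 2 were lower, Lrat (-0.56), which stores retinol as ester, and Dcn (-0.43), a matrix proteoglycan, with summed intensities of 434 to 615 with telmisartan and 606 to 795 with vehicle. The stellate count was 0 with the methods' t-test or without telmisartan 2 or vehicle 2, 1 without vehicle 3, 4 without telmisartan 1 and 5 without vehicle 1. None of 8 neutrophil, 7 lymphocyte or 4 foetal liver markers passed with limma or the methods' t-test, and the lowest unadjusted limma p among them was 0.0598, for Igf2 (-0.25). The genes nearest the threshold in the other lists were Mmp8 (-0.12) and Elane (0.10) for neutrophils, Cd79a (-0.22) and Cd3e (-0.20) for lymphocytes, and Afp (0.15) beside Igf2 for foetal liver. The summed lymphocyte intensity was 44.6 to 46.5 with telmisartan and 47.7 to 49.2 with vehicle, so the ranges were apart. These lymphocyte markers were dim, with means of 1.96 to 3.39 in log2 intensity, near the array medians, so signals near background weigh on their sum. The sums of neutrophil markers (33.6 to 42.9 with telmisartan, 33.0 to 43.5 with vehicle) and foetal genes (28.5 to 32.5 with telmisartan, 30.7 to 32.8 with vehicle) overlapped. With 1 array left out, single calls came up for Muc1 and Cftr among bile duct markers, S100a9 among neutrophil markers and Igf2 among foetal genes, the last also with quantile normalization. The part of these cells in the values of the 8 factors was not tested.

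Single mice weighed on several of the factors. Leaving out 1 array at a time moved Onecut1 between -1.46 and -1.02 and Foxa3 between 0.29 and 0.52. Their signs could not turn in this way, since the groups did not overlap for either gene. Foxa1 stayed between -0.41 and -0.21, Onecut2 between -0.31 and -0.06 and Cebpa between 0.14 and 0.34. Signs turned for Foxa2, Cebpb and Prox1, whose differences were the smallest.

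**Figure D5:**
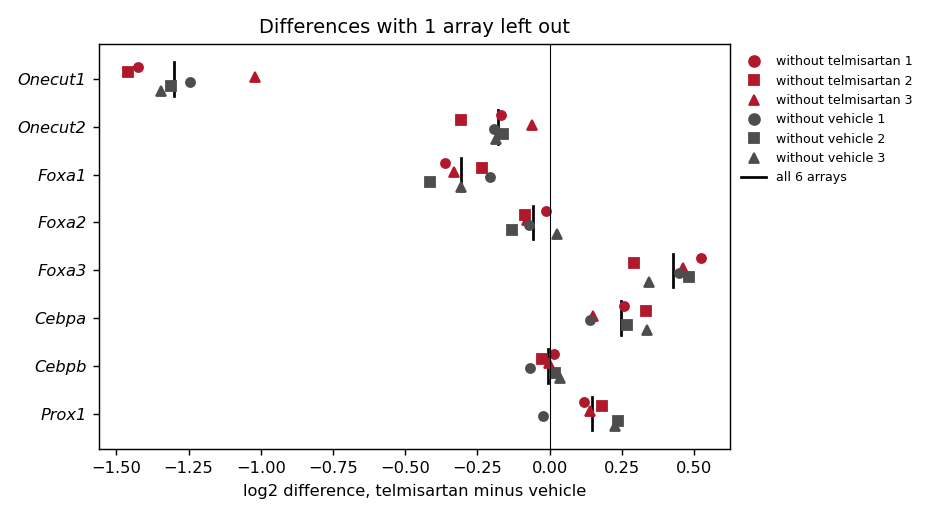
Log2 difference of each factor, telmisartan minus vehicle (x axis), over all 6 arrays (black bar) and with each telmisartan array (red) or vehicle array (grey) left out. Onecut1 lies between -1.46 and -1.02 and Foxa3 between 0.29 and 0.52 in these 6 cases, and Prox1 turns to -0.02 without vehicle 1.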

How the data were processed

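Liver RNA of 3 telmisartan and 3 vehicle mice was measured. The authors processed the arrays with robust multi-array average (RMA), whose version is not given in the sources used here, and deposited intensities on a linear scale. These were turned to log2 without a pseudocount and not normalized again. Signals near background limit dim probe sets, and the number of arrays limits the precision.

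The platform table paired 23094 of 31873 probe sets with 1 gene symbol, standing for 22087 genes, each represented by its brightest probe set. The comparison of groups used limma 3.58.1 under R 4.3.3 (lmFit, eBayes, two-sided, Benjamini-Hochberg over all 23094), which was tested on simulated data. Genes were called at a fold of 1.2 or more with an unadjusted p under 0.05, as in the methods, whose t-test was applied to these log2 values too. Intervals are 95% intervals from limma.

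The 8 factors and all gene lists were chosen with earlier results of these data known. All 8 factors, every called gene of the other lists and the genes with the lowest p until 2 per list are named, with others named for their role, and 5 genes on each side for likeness to Onecut1. Listed genes that the annotation used here did not match to a probe set of their own, such as Pfkfb1, Saa1, Tf, Spp1, Ccl21a and H19, are not analysed. The comparison of Foxa3 with Foxa1 and the marker sums were chosen after seeing the data. Alternatives covered scaling, pseudocount, test, filter, probe sets, a replicate block and leaving out each array. The titles number the mice without naming a pairing. Over all probe sets with 1 symbol, deviations from the group means correlated at 0.04, -0.02 and 0.03 between mice of the same number. Such values cannot exclude a shared order in part of the genes.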

Additional observations from a re-analysis of the deposited data

How the results depend on the processing

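The difference of Onecut1 was -1.46 to -0.996 over the 16 alternatives, with the latter value from a pseudocount of 8. The methods' t-test, the intensity trend, the filter, the choice of probe sets and the replicate block could not move it from -1.30. Without 1 array it ranged from -1.46 to -1.02, and its sign could not turn because the groups did not overlap. The number of factors called higher was 0 with the methods' t-test and at a fold of at least 1.5, and 0 to 1 without 1 array. The number called lower was 2, with Foxa1 beside Onecut1, when each array was centred on its median, with an intensity trend in limma, and when only probe sets with a mean log2 of at least 4 were tested, and it was 1 to 2 without 1 array. With the replicate block it was also 2 (Foxa1 limma unadjusted p of 0.0328), and the block changed no other call of the 8 factors. In the network and target lists the block added calls of Nr0b2, Klf15, Cyp7a1 and Arg1 as higher and Igfbp1 as lower. Whether the numbers in the titles pair the mice is not known. For Foxa1 the unadjusted p ranged from 0.0197 to 0.161 over 16 alternatives, and for Foxa3 from 0.0114 to 0.0685. Cebpb turned to 0.0204 with quantile normalization. Without 1 array, Cebpb ranged from -0.0673 to 0.0350, Foxa2 from -0.131 to 0.0240 and Prox1 from -0.0229 to 0.235. Over all genes, 681 were higher and 772 lower, against 230 and 419 with a pseudocount of 8, 325 and 387 with the methods' t-test, 252 and 464 of the 8518 genes with a mean log2 of at least 4, and 66 and 102 at a fold of at least 1.5. The causes were not tested.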
